A study of Mus musculus with 32 samples.

Results

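The regions described here are the accessible-chromatin peaks of mouse astrocytes that were annotated to the zinc finger protein (Zfp) genes. A peak was a member when it lay on chromosomes 1 to 19 and the gene name given for it in a deposited peak list was Zfp followed by digits, with or without 1 letter. The rule used the gene name alone and no measured value. It selected 222 of the 13794 autosomal peaks in 6 peak lists, which held 16174 peaks in all, and no peak off the autosomes carried such a name. The 222 peaks carried the names of 48 genes on 13 of the 19 autosomes. The rule kept Zfp names only, so it did not separate genes with a KRAB domain from other zinc finger genes.

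Chromatin accessibility was profiled by ATAC-seq, in which Tn5 transposase inserts adapters into open DNA, in astrocytes isolated from the orbitofrontal cortex (OFC) by magnetic sorting with an antibody to the astrocyte surface antigen ACSA-2. All animals were male C57BL/6J mice that had received AAV6 vectors driven by the astrocytic GFAP promoter, and each of the 32 samples pooled 3 mice. The study asked how stress and the dose of Zbtb7a, a zinc finger transcription factor, alter astrocyte chromatin. The GFP control group (5 samples) carried a non-targeting microRNA virus and was not stressed, and the GFP CSDS group (5 samples) carried the same virus and was exposed to chronic social defeat stress (CSDS) for 10 days. The Zbt-KD control group (5 samples) carried a microRNA virus that knocks down Zbtb7a and was not stressed, and the Zbt-KD CSDS group (5 samples) carried that virus and went through the 10 days of defeat. The GFP SSDS group (6 samples) carried an empty GFP vector and the ZBT-OE SSDS group (6 samples) a vector that overexpresses ZBTB7A. Both of these groups had 1 day of subthreshold social defeat (SSDS), a stressor too short to produce social avoidance by itself; the stressor is taken from the study's methods, since for these groups the labels give the virus alone. Every group was represented by 1 peak list and no value for a single sample was used here, so no spread between samples could be given and no test between groups was run. Read depth is unknown. Ranges after a share are 95% Wilson intervals, computed over peaks, and reflect counting error alone.

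Zfp genes encode proteins that bind DNA through strings of zinc fingers. Many of them, the KRAB zinc finger genes, lie in tandem arrays that arose by repeated duplication, and their proteins recruit the corepressor TRIM28 and repressive histone methylation to silence retrotransposons. Their arrays are themselves often packaged in heterochromatin, and the near-identical copies make short reads hard to place.

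The array on distal chromosome 4 held the strongest members, and its promoters are shown first because they show how alike its genes are in sequence. RefSeq promoter windows of 300 bases, 250 before to 50 after a transcription start site (TSS), were taken on GRCm38.p6, whose coordinates are those of mm10. Windows were given for 12 of the 18 Zfp genes of the array. Of these 12 genes, 10 shared the 15-base word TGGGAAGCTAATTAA, which lay 106 to 164 bases before the TSS. The word was picked from these promoters as the longest held by at least 75% of the 12 genes, after counting every word in their windows. That it was common among them was therefore set by the choice. The word was then looked for in all windows on both strands, and no list of known motifs was searched. It stood in 12 of 32851 promoter windows (0.0365%), all within the array. The 2 windows with other gene names belonged to Gm13212 and Rex2, and none of the 331 Zfp genes with a window held the word outside the array. Other 15-base words were not counted in this way, so the absence of this word elsewhere has no background. Over the 45 pairs of those 10 promoters, which were chosen for holding the word, the identity ran from 58.2% to 94.8% with a median of 75.4%. In the sequences below, capitals mark the word. Zfp980, Zfp987, Zfp600 and Zfp985 are shown because their windows lay within a peak in all 6 lists, Zfp984 because it held the word and its window lay in a peak in 0 of 6 lists, Zfp933 because it closed the array, lacked the word and lay in 0 lists, and Zfp426 as the promoter of an array on chromosome 9 that was covered in all 6 lists without the word.
Zfp980, chr4:145670447-145670746, plus strand: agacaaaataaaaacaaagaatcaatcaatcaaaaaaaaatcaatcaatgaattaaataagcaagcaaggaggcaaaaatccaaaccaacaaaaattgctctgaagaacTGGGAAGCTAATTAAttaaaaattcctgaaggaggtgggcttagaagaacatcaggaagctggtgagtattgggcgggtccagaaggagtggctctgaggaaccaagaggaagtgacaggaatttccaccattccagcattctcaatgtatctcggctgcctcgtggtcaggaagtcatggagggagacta
Zfp987, chr4:146097062-146097361, plus strand: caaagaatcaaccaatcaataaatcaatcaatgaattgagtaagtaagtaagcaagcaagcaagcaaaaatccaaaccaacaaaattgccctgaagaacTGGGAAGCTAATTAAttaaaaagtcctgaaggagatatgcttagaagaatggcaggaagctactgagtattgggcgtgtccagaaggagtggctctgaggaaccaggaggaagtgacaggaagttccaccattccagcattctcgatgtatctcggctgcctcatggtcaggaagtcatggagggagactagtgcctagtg
Zfp600, chr4:146156577-146156876, plus strand: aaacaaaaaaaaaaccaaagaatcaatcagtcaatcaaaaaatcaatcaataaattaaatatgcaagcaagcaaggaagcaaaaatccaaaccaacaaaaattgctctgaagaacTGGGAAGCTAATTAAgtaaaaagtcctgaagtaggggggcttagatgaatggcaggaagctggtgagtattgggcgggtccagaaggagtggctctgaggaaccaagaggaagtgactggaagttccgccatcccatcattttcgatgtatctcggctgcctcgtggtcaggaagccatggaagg
Zfp985, chr4:147553027-147553326, plus strand: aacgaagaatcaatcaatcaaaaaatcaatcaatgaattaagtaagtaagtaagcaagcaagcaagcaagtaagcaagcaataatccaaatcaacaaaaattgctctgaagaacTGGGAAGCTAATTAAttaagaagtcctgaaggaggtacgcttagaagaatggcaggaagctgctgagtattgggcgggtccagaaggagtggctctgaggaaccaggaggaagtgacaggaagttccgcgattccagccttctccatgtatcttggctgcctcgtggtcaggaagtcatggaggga
Zfp984, chr4:147809739-147810038, minus strand: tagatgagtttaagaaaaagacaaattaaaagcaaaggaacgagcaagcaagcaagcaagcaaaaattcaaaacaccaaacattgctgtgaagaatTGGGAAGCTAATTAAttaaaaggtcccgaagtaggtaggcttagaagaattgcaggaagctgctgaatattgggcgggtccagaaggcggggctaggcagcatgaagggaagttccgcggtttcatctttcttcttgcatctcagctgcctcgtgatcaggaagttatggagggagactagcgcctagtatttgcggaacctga
Zfp933, chr4:147848369-147848668, minus strand: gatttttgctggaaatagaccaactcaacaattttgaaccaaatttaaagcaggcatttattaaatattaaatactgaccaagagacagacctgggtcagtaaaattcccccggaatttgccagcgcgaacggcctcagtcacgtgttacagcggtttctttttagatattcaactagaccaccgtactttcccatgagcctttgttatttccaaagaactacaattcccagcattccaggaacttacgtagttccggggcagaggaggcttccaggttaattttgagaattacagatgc
Zfp426, chr9:20492697-20492996, minus strand: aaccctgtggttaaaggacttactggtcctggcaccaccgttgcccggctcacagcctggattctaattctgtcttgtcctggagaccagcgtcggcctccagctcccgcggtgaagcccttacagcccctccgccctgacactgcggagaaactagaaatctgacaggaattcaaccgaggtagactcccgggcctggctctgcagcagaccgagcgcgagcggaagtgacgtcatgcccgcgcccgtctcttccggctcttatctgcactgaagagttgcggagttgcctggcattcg

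The word and the peaks did not divide the promoters in the same way. The window of Zfp993 lacked the word, had at most 48.3% identity to a promoter with it and lay in a peak in all 6 lists, whereas Zfp984 held the word and was outside. Zfp984 and Zfp933 were the last 2 genes of the array. The window of Zfp933 had at most 52.2% identity to a promoter with the word.

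Member peaks made up a small and similar share of every list. GFP control held 71 of 5416 autosomal peaks (1.31%, 1.04 to 1.65), GFP CSDS 67 of 3410 (1.96%, 1.55 to 2.49) and Zbt-KD control 18 of 1302 (1.38%, 0.876 to 2.17). Zbt-KD CSDS held 19 of 1184 (1.60%, 1.03 to 2.49), GFP SSDS 25 of 1283 (1.95%, 1.32 to 2.86) and ZBT-OE SSDS 22 of 1199 (1.83%, 1.21 to 2.76). The number of peaks differed far more than the DNA they covered. Member peaks covered 4.25, 4.70, 4.11, 4.83, 3.93 and 4.07 Mb in the same order. The distinct Zfp names per list were 21, 23, 15, 15, 21 and 22. The lists were thus not on 1 scale: the narrowest autosomal peak had 687 bp in GFP control, 1174 in GFP CSDS, 6425 in Zbt-KD control, 6507 in Zbt-KD CSDS, 8473 in GFP SSDS and 20269 in ZBT-OE SSDS. A narrow member of the GFP control list could therefore have no counterpart of its size in the other 5 lists.

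Width followed the list. The median member width came to 2.14 kb in GFP control, 4.25 in GFP CSDS, 41.9 in Zbt-KD control, 55.8 in Zbt-KD CSDS, 46.7 in GFP SSDS and 128 in ZBT-OE SSDS, and over all autosomal peaks it was 1.98, 4.04, 32.9, 41.3, 53.9 and 73.1 kb. The order of the lists was nearly that of their narrowest peak. Fold enrichment, the peak caller's ratio of signal over local background, is compared here only as a percentile within its own list. The median percentile of the members was 53.3, 51.1, 54.1, 56.5, 54.6 and 71.8, near the middle of the first 5 lists. The ZBT-OE SSDS value rests on 22 peaks. For members within 10 kb of a TSS the median was 78.8, 65.2, 87.6, 88.8, 54.6 and 58.7, over 14, 12, 4, 4, 7 and 10 peaks. The middle position thus did not hold for those members in the first 4 lists. No such median was computed for all autosomal peaks within 10 kb of a TSS, so these values have no background. In both knockdown lists the 4 peaks included those named for Zfp981, Zfp534 and Zfp426. The top 10% of a list held 13 members in GFP control (18.3%), 12 in GFP CSDS (17.9%), 3 in Zbt-KD control (16.7%), 2 in Zbt-KD CSDS (10.5%), 3 in GFP SSDS (12%) and 2 in ZBT-OE SSDS (9.09%). Wider members had higher fold enrichment within each list, with Spearman's rho of 0.73, 0.56, 0.55, 0.78, 0.67 and 0.48 over 71, 67, 18, 19, 25 and 22 peaks of 1 list each. Over all autosomal peaks the same rho was 0.69, 0.70, 0.77, 0.79, 0.73 and 0.58.

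**Figure D1:**
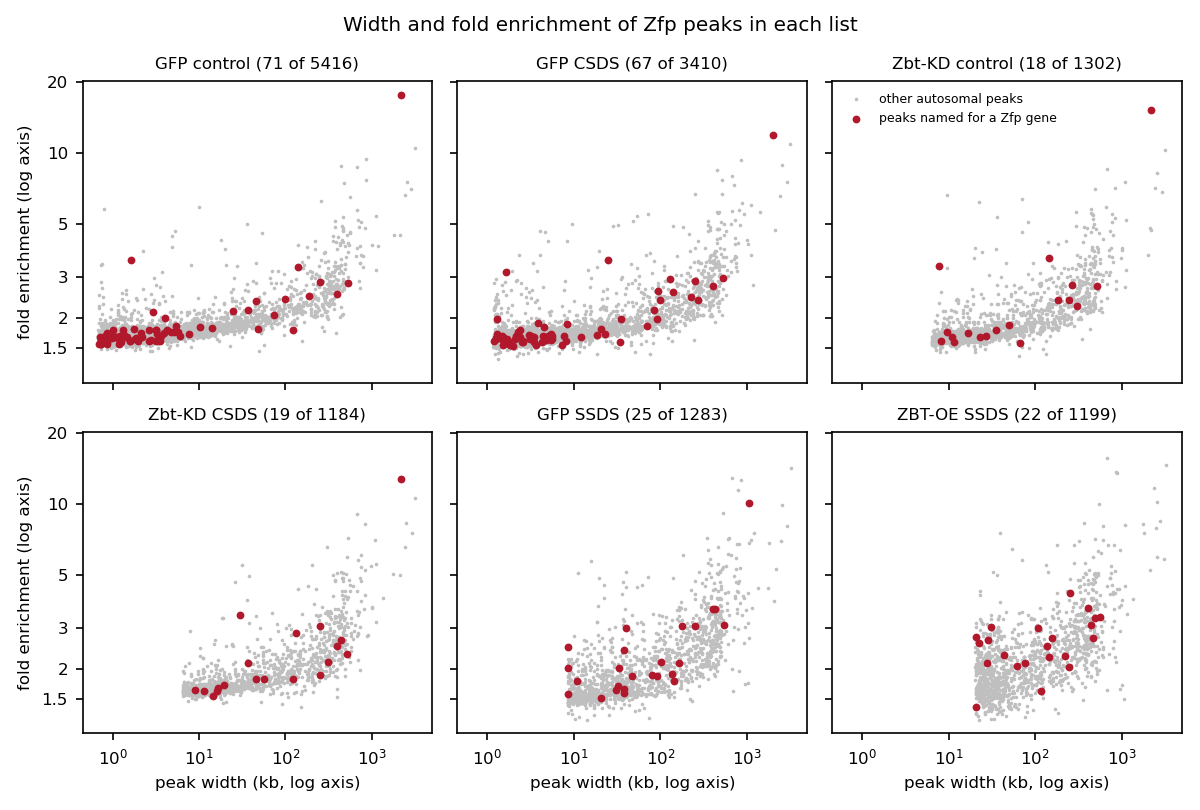
Fold enrichment against width (both log axes) of every autosomal peak, with 1 panel for each of the 6 peak lists and the Zfp-named members drawn over the others. The narrowest peak moves right from 687 bp in GFP control to 20269 bp in ZBT-OE SSDS, and the single member far above the rest is the chromosome 4 peak, with a fold enrichment of 17.66 in GFP control.

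Most members lay away from gene starts. Of the 222 peaks, 162 were annotated as intergenic, 40 as intronic, 9 as 3′ UTR, 8 as exonic, 2 as transcription end and 1 as promoter. Only 51 were centred within 10 kb of the TSS they were named for, and 44 were over 200 kb from it. The members were nevertheless nearer to a TSS than autosomal peaks in general. They were within 10 kb in 19.7%, 17.9%, 22.2%, 21.1%, 28.0% and 45.5% of cases in the order of the lists above, and all autosomal peaks in 10.4%, 11.0%, 10.6%, 11.4%, 16% and 26.1%. For peaks named for olfactory or vomeronasal receptor genes the shares were 40.1%, 43.8%, 35.7%, 37.5%, 35.8% and 32.6%. These were above the members in every list but ZBT-OE SSDS, so the nearness was not particular to Zfp names. In GFP SSDS and ZBT-OE SSDS fewer members were intergenic (52.0% and 45.5%) than all peaks (71.2% and 64.6%), and in both knockdown lists and GFP CSDS the shares were alike (members 77.6% to 78.9%, all peaks 78.2% to 79.5%).

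A name is not an overlap. Only 94 of the 222 members (42.3%) touched the body of the gene they were named for and 71 (32.0%) its TSS, and 121 (54.5%) touched no protein-coding gene. That share was lower than for all autosomal peaks in every list: 71.8%, 59.7%, 38.9%, 57.9%, 32% and 18.2% of members against 77.9%, 72.3%, 62.4%, 62.8%, 51.3% and 37.1%. All 222 members were named for a protein-coding gene by the rule, whereas other peaks could be named for other transcripts. The comparison is therefore not of like with like. The share touching the named gene was 26.8% in GFP control, 35.8% in GFP CSDS, 9 of 18 in Zbt-KD control, 36.8% in Zbt-KD CSDS, 68.0% in GFP SSDS and 81.8% in ZBT-OE SSDS. For 8 of the 48 genes (Zfp433, Zfp462, Zfp619, Zfp758, Zfp804a, Zfp954, Zfp960 and Zfp966) no peak bearing the name touched the gene.

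Chromosome 17 held 56 members (25.2%) named for 9 genes, chromosome 4 held 48 (21.6%) for 10 genes, chromosome 13 held 36 (16.2%) for 6, chromosome 2 held 26 (11.7%) for 3 and chromosome 8 held 25 (11.3%) for 3. The other chromosomes held 1 to 9 members each. Members of any list within 500 kb of each other formed 31 loci, of which 25 had 1 gene name. The 3 loci with 3 or more names, on chromosomes 4, 13 and 17, held 89 members (40.1%) and 17 of the 48 names.

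**Figure D2:**
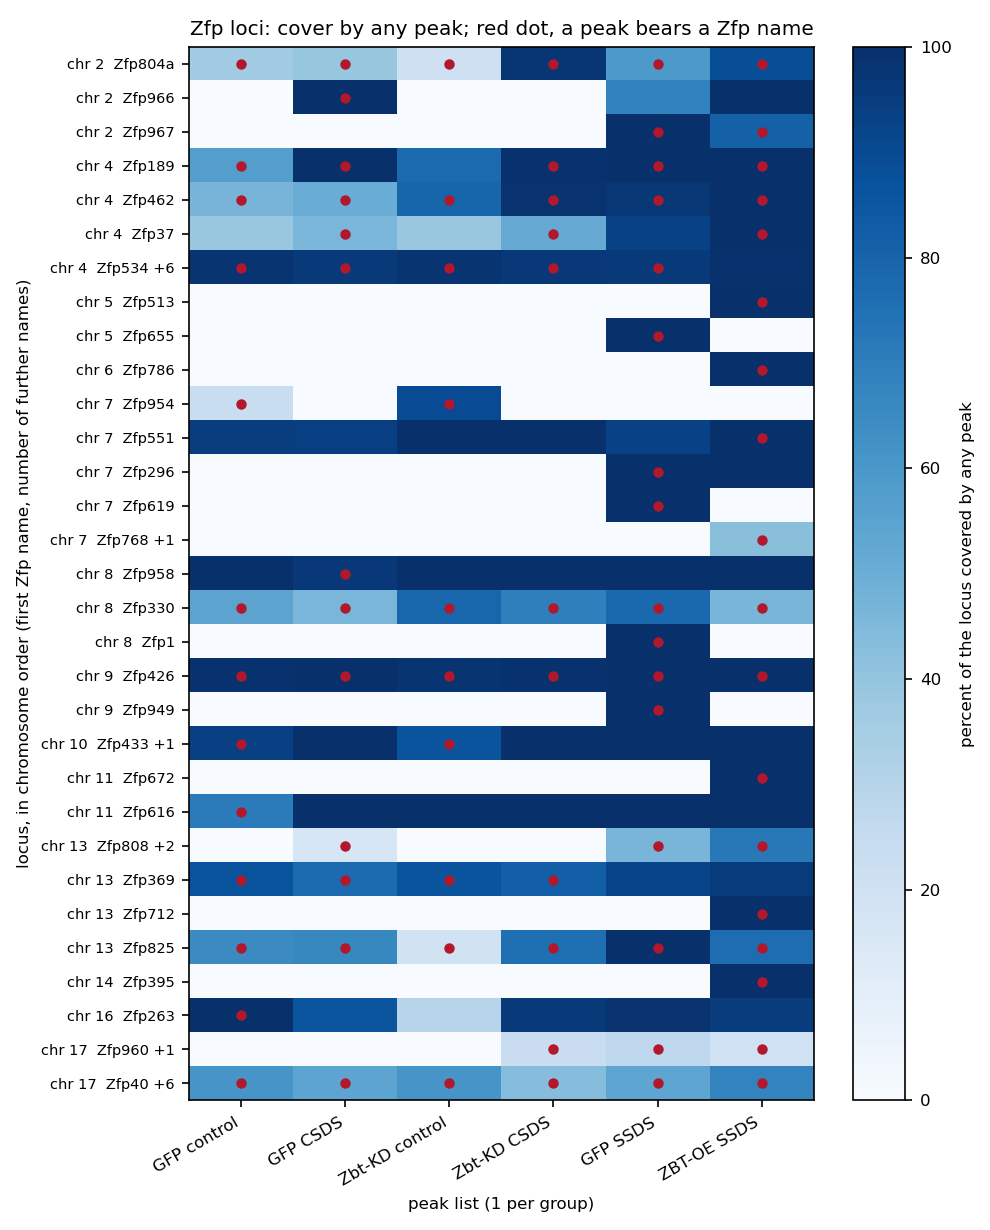
Percent of each of the 31 loci (rows, in genome order) covered by autosomal peaks of any name in each of the 6 lists (columns), with a red dot where a peak of the locus bears a Zfp name. Of the 31 loci, 15 had a peak in all 6 lists and 10 in a single list, and all 10 of the latter belonged to GFP SSDS or ZBT-OE SSDS, where 13.6% and 27.6% of all autosomal peaks were in no other list.

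The chromosome 4 array held the widest member peak in 5 lists and the one with the highest fold enrichment in the same 5. Its locus, chr4:145413219-147775785 (2363 kb), holds 17 Zfp genes among 21 protein-coding genes, and its zinc finger proteins belong to the KRAB family that represses retrotransposons. Peaks covered 98.1% of it in GFP control, 96.2% in GFP CSDS, 98.4% in Zbt-KD control, 96.8% in Zbt-KD CSDS, 96.1% in GFP SSDS and 99.0% in ZBT-OE SSDS. Near-complete cover was thus common to all 6 lists, whatever the virus or stress. The edges of the locus were those of its outermost member peaks, so high cover was in part built in. Over the array, which is bounded by its genes, cover was 93.5% to 96.6%. Unsequenced bases made up 18.3% of the locus, and those inside a peak were counted as covered.

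In GFP control 1 peak of 2165 kb, named for Zfp981, had a fold enrichment of 17.66 and ranked 1 of 5416. The corresponding peak was 1994 kb with 11.99 in GFP CSDS (named Zfp992), 2181 kb with 15.29 in Zbt-KD control and 2155 kb with 12.74 in Zbt-KD CSDS (both named Zfp981), and ranked 1 in each of these lists. In GFP SSDS it was broken into a 1224 kb peak with 7.54 (rank 9, named Gm13034 and therefore no member) and a 1048 kb peak with 10.08 (rank 5, named Zfp982). In ZBT-OE SSDS it was a single 2338 kb peak with 11.70 (rank 5), named 1700095A21Rik. The strongest region of the members thus carried no Zfp name in ZBT-OE SSDS, since a peak takes the name of the TSS nearest to its centre.

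Apart from the break in GFP SSDS, the lists differed at the distal end of the array. GFP CSDS divided it into 8 peaks named Zfp985, of 1.52 to 84.3 kb, where the wide peaks of Zbt-KD control, GFP SSDS and ZBT-OE SSDS ran on. Zfp534 lay in a separate peak in 4 lists, of 138 kb with a fold enrichment of 3.30 in GFP control, 131 kb with 2.93 in GFP CSDS, 144 kb with 3.59 in Zbt-KD control and 133 kb with 2.85 in Zbt-KD CSDS. In both SSDS lists that interval was part of the wide peak. The body of Zfp984 (chr4:147753974-147809788) was touched in all 6 lists and its TSS in 0.

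**Figure D3:**
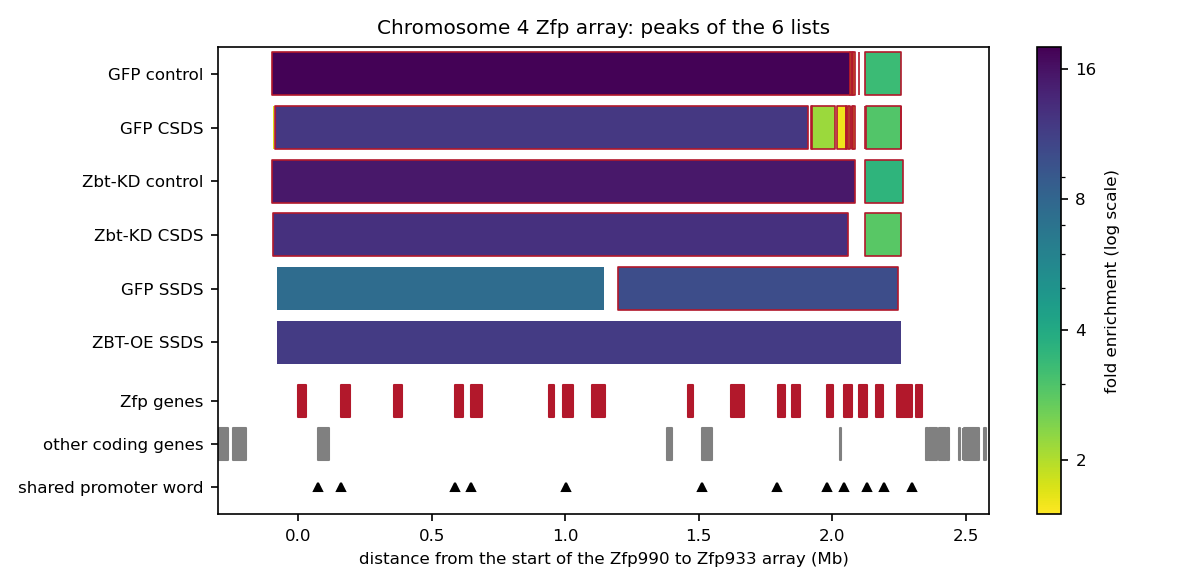
Peaks of the 6 lists over the chromosome 4 array, drawn to scale with distance along the array in Mb, above its protein-coding genes; black triangles mark the 12 promoter windows with the shared word. Near-unbroken peaks span the array in every list, and the lists differ at its distal end, before Zfp984 and Zfp933, and by a break in the middle in GFP SSDS.

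The chromosome 4 array was also highly repetitive. Of the 31-base words sampled across the chromosome 4 array, 80.0% occurred more than once in the genome and 73.7% more than once within the array, and 18.5% of the array was unsequenced. In member peaks over all loci, multi-copy words made up 64.4% in GFP control, 60.8% in GFP CSDS, 64.6% in Zbt-KD control, 57.9% in Zbt-KD CSDS, 51.8% in GFP SSDS and 39.8% in ZBT-OE SSDS. In peaks named neither for Zfp nor for receptor genes the shares were 35.8% to 41.4%, in peaks named for olfactory or vomeronasal receptor genes 37.5% to 48.5%, and outside peaks 13.7% to 14.2%. In GFP SSDS and ZBT-OE SSDS the members were close to the receptor peaks (48% and 40%). The member shares of these lists leave out chromosome 4 array peaks with other names. These were a 1224 kb peak named Gm13034 in GFP SSDS and the 2338 kb peak named 1700095A21Rik in ZBT-OE SSDS. Both were counted with the peaks named neither for Zfp nor for receptor genes, so the member shares are not over the same loci in every list. The part of sequence repetition in the fold enrichment was not tested.

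The peak called over the chromosome 9 cluster had nearly the same edges in every list, and the sequence there is largely single-copy. A single peak named for Zfp426 measured 250 kb in GFP control, 251 in GFP CSDS, 247 in Zbt-KD control, 250 in Zbt-KD CSDS and 251 in both GFP SSDS and ZBT-OE SSDS. Its start varied by 1.82 kb and its end by 2.56 kb over the 6 lists. Fold enrichment was 2.85, 2.88, 2.40, 3.05, 3.05 and 4.22, at percentiles of 97.2, 94.7, 80.4, 89.9, 84.2 and 93.5. The peak covered Zfp26, Zfp426, Zfp266 and Zfp846, part of Zfp560, and Fbxl12, a gene of the F-box family. Only 14% of its 31-base words were multi-copy, against 80.0% in the chromosome 4 locus.

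The chromosome 17 array, from Zfp160 to Zfp13 (2.59 Mb, 23 Zfp genes among 37 coding genes), was covered over its distal part, short of its last 2 Zfp genes. Peaks covered 33.0%, 29.2%, 32.9%, 23.3%, 29% and 36.8% of it in the 6 lists. The proximal 13 Zfp genes, from Zfp160 to Zfp942, and the last 2, Zfp213 and Zfp13, were touched in 0 lists. Between them Zfp943 was touched in 1 list, Zfp947, Zfp994, Zfp944 and Zfp758 in 2 each, Zfp946 and Zfp945 in 4 each, and Zfp40 in all 6.

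Zfp40 lay in a domain whose proximal edge was fixed. Its peak spanned 529 kb in GFP control, 525 in GFP CSDS, 515 in Zbt-KD control, 517 in Zbt-KD CSDS, 548 in GFP SSDS and 562 in ZBT-OE SSDS, with starts within 4.41 kb and ends within 48.3 kb. Fold enrichment was 2.84, 2.96, 2.73, 2.32, 3.08 and 3.34, at percentiles of 97.2, 95.3, 86.6, 76.4, 84.6 and 87.4. The peak also held vomeronasal receptor genes of the Vmn2r family, which serve pheromone detection. Olfactory or vomeronasal receptor genes lay in peaks overlapping 5 of the 31 loci.

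The stretch proximal to it, around Zfp946, Zfp945 and Zfp944, differed between lists. Zfp946 was named in all 6 lists, over a total of 123, 64.9, 83.7, 45.3, 37.6 and 146 kb, yet its body was touched in 4 lists, not in Zbt-KD CSDS or GFP SSDS. The Zfp945 TSS lay in a peak in 4 lists and not in Zbt-KD CSDS or ZBT-OE SSDS. A 48.5 kb peak over Zfp944 with a fold enrichment of 1.81 was present in GFP control, and Zfp944 was touched again only in ZBT-OE SSDS.

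**Figure D4:**
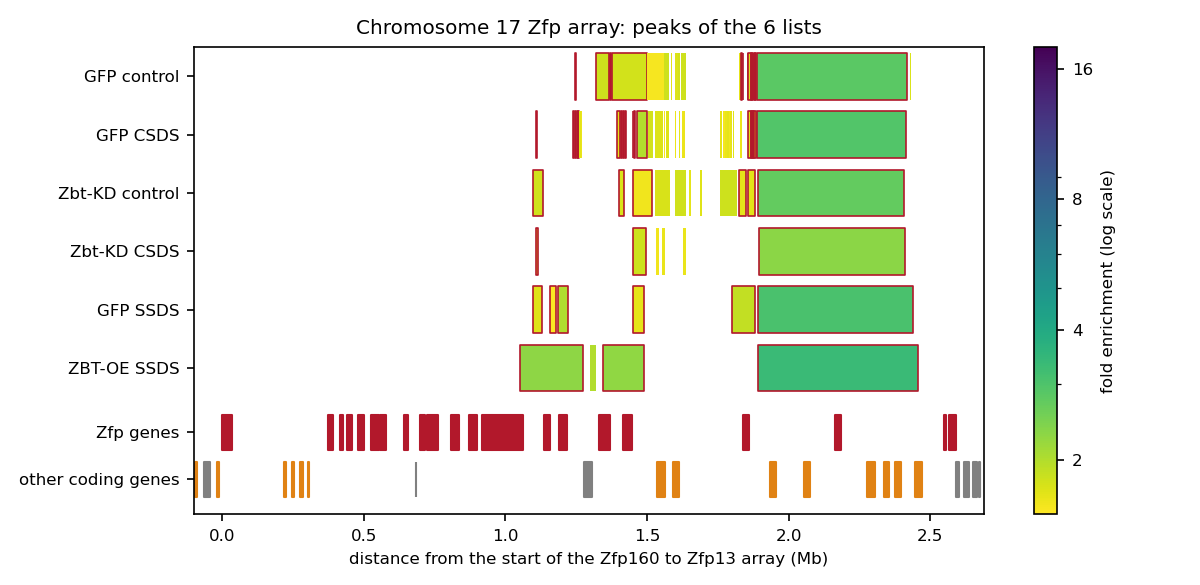
Peaks of the 6 lists over the chromosome 17 array, to scale, with distance along the array in Mb; red outlines mark Zfp-named peaks, and the genes beneath are coloured as Zfp genes, olfactory or vomeronasal receptor genes (orange) and other coding genes (grey). The proximal 13 Zfp genes have no peak in any list, and the Zfp40 domain of 515 to 562 kb recurs in all 6.

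Besides Zfp426, Zfp40 and Zfp946, the genes named in all 6 lists were Zfp462, Zfp804a, Zfp330 and Zfp825, and their peaks were mostly distant from the gene. Zfp462 encodes a developmental regulator linked to heterochromatin. Its widest peak spanned 185, 226, 268, 439, 433 and 444 kb of gene-free DNA in the order of the lists and lay 389 to 497 kb from the TSS. Fold enrichment there was 2.48, 2.46, 2.77, 2.66, 3.61 and 3.09. Zfp804a, the mouse counterpart of the schizophrenia risk gene ZNF804A, was named for 23 peaks. Together they covered 102 kb in GFP control, 110 in GFP CSDS, 58.5 in Zbt-KD control, 272 in Zbt-KD CSDS, 166 in GFP SSDS and 248 in ZBT-OE SSDS. All of these lay in a 280 kb interval with no coding gene, and their highest fold enrichment was 2.06, 1.99, 1.88, 1.89, 1.92 and 2.04.

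Zfp330, which encodes a nucleolar protein, was named for 22 peaks over a 229 kb locus downstream of and across the gene, with a highest fold enrichment of 2.41, 2.61, 2.39, 2.12, 3.05 and 2.98. The only promoter-class member of the series was one of them, a 1.31 kb GFP control peak at chr8:82773591-82774899 centred 0.119 kb from the Zfp330 TSS, with a fold enrichment of 1.79. The TSS also lay in the wide peaks of Zbt-KD control and GFP SSDS, and in no peak of GFP CSDS, Zbt-KD CSDS or ZBT-OE SSDS. Zfp825 had the strongest narrow members. A 1.64 kb peak upstream of it reached 3.53 in GFP control (rank 70) and 3.15 in GFP CSDS (rank 134). The highest Zfp825 value was 3.53, 3.54, 3.34, 3.38, 2.99 and 3.01 over the lists, and 61.9% of the 31-base words of its 40.0 kb locus were multi-copy.

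Zfp189, which has been linked to stress resilience in mouse prefrontal cortex, had a peak near its TSS that differed widely in width between lists. GFP control had a 2.97 kb peak over the TSS with a fold enrichment of 2.12. GFP CSDS had a 403 kb peak with 2.73, Zbt-KD CSDS a 400 kb peak with 2.51, and GFP SSDS and ZBT-OE SSDS 403 kb peaks with 3.59 and 3.63. In Zbt-KD control no peak was named for it and the TSS lay in none. Peaks nevertheless covered 57.0% of the 403 kb locus in GFP control and 77.6% in Zbt-KD control, against at least 99.2% in the other 4 lists, so much of the domain was covered in every list and it was divided in the 2 unstressed ones. The locus holds 11 coding genes.

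The chromosome 10 locus, chr10:81727944-81919319, carried Zfp names in only 2 lists and was covered in all of them. GFP control had a 1.96 kb Zfp433 peak with a fold enrichment of 1.63, and Zbt-KD control an 8.09 kb Zfp433 peak with 1.60 and an 11.5 kb Zfp781 peak with 1.58. Each list had a far stronger peak over the same interval named Gm10778 or Gm3055, of 177, 251, 185, 251, 283 and 284 kb, with a fold enrichment of 3.12, 3.99, 3.0, 3.39, 5.17 and 5.66. Of the 31-base words there, 97.1% were multi-copy. Zbtb7a itself, at chr10:81135220-81152995, lies 575 kb from this locus and had no overlapping peak in any list. The nearest peak to it was 522 to 575 kb away in 5 lists and 97.9 kb away in ZBT-OE SSDS, so the targeted gene could not be checked in these lists.

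The comparison of lists asks which Zfp peaks appear or disappear with stress or with the Zbtb7a virus. A peak was called opened when the first list had it and no peak of the second overlapped it by 1 bp, and closed in the reverse case. The 5 contrasts share lists: each of the 4 lists of the knockdown experiment enters 2 of them. With stress under the control virus (GFP CSDS against GFP control), 21 of 67 members were opened (31.3%, 21.5 to 43.2), below the 48.2% of all GFP CSDS peaks that were, and 21 of 71 were closed (29.6%, 20.2 to 41.0) against 29.2% of all GFP control peaks. When the lists were put on 1 scale, by merging gaps up to 20364 bp and dropping peaks under 20269 bp, 4 of 19 members (21.1%) were opened against 25.6% of all peaks, and 1 of 16 (6.25%) was closed against 11.6%. The opened members had a median width of 2.49 kb, and the shared ones 5.08 kb.

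With the knockdown in unstressed mice (Zbt-KD control against GFP control), 1 of 18 members was opened (5.56%, 0.988 to 25.8) against 31.0% of all peaks, a 34.9 kb peak named for Zfp947. In the other direction 11 of 71 were closed (15.5%, 8.88 to 25.7) against 28.8%. Both shares lay below those of all peaks, but on 1 scale only the opened share did: 1 of 11 members was opened (9.09%) against 22.4% of all peaks, and 2 of 16 were closed (12.5%) against 9.69%. Among the closed were the 2.97 kb Zfp189 peak, whose nearest Zbt-KD control peak was 6.70 kb away, and the 48.5 kb Zfp944 peak, 35.1 kb away.

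With the knockdown in stressed mice (Zbt-KD CSDS against GFP CSDS), 4 of 19 members were opened (21.1%, 8.51 to 43.3) against 22.0% of all peaks, and 29 of 67 were closed (43.3%, 32.1 to 55.2) against 38.3%. With stress under the knockdown (Zbt-KD CSDS against Zbt-KD control), 5 of 19 were opened (26.3%, 11.8 to 48.8) against 27.6%, and 4 of 18 were closed (22.2%, 9.0 to 45.2) against 24.3%. In all 4 cases the share of all peaks lay inside the members' counting interval. The opened members of both contrasts included a 55.8 kb peak over Zfp97, with a fold enrichment of 1.82 and the nearest peak 704 kb away in both GFP CSDS and Zbt-KD control.

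With overexpression (ZBT-OE SSDS against GFP SSDS), 7 of 22 members were opened (31.8%, 16.4 to 52.7) against 31.4% of all peaks, and 5 of 25 were closed (20.0%, 8.86 to 39.1) against 27.7%. The 7 opened peaks were named for Zfp395, Zfp513, Zfp672, Zfp712, Zfp768, Zfp771 and Zfp786. The 3 strongest were a 20.7 kb peak at Zfp712 (fold enrichment 2.73), a 28.3 kb peak at Zfp672 (2.65) and a 22.5 kb peak at Zfp786 (2.59), each over the TSS of its gene. The closed ones included peaks of 8.48 kb near Zfp619 (2.49), 38.2 kb at Zfp1 (2.40) and 8.49 kb at Zfp655 (2.01). The Zfp619 and Zfp655 peaks were narrower than any peak of the ZBT-OE SSDS list. By length, called members made up 0.849% to 5.51% of a list's members over the 5 contrasts, and called peaks 3.16% to 7.84% of all autosomal peaks.

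The 7 opened peaks of the overexpression contrast lay in loci with few repeated sequences; 4 of them, at Zfp712, Zfp768, Zfp771 and Zfp786, were in Zfp arrays. Multi-copy words made up 3.80% of the Zfp672 locus, 5.67% of Zfp395, 6.57% of Zfp786, 8.38% of Zfp513, 9.19% of Zfp712 and 9.38% of the Zfp768 and Zfp771 locus. None of these 6 loci had a peak of any name in the other 5 lists, and 27.6% of all ZBT-OE SSDS peaks were likewise in no other list. The multi-copy share over all 377 opened ZBT-OE SSDS peaks was not computed, so the low shares cannot be called particular to Zfp peaks. The loci covered in GFP SSDS alone were those of Zfp655, Zfp619, Zfp1 and Zfp949, with 6.05% to 16.1% multi-copy words. Zfp296, which encodes a pluripotency factor, lay in a peak in both SSDS lists and in none of the other 4.

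The Zfp808, Zfp934 and Zfp935 locus on chromosome 13, chr13:61763590-62624456 (861 kb), differed most between lists among the loci with 3 or more names. It was covered to 0% in GFP control, 16.4% in GFP CSDS, 0% in Zbt-KD control, 0% in Zbt-KD CSDS, 46.5% in GFP SSDS and 72.0% in ZBT-OE SSDS. The locus thus had peaks in the control-virus stress lists and in ZBT-OE SSDS and in neither knockdown list. Of the 31 loci, 24 had a peak in GFP SSDS and 26 in ZBT-OE SSDS, against 16 or 17 in each other list. In GFP CSDS the chromosome 13 locus held 11 peaks, 9 of them members of 1675 to 70026 bp. These 9 were opened against GFP control and closed in Zbt-KD CSDS. Of these 9, 4 were wider than the narrowest peak of the Zbt-KD CSDS list, and the others could have no counterpart of their size there. Of all GFP CSDS peaks, 48.2% were opened against GFP control and 38.3% were closed in Zbt-KD CSDS. The share of all peaks with both calls was not computed. The widest, over Zfp934, had a fold enrichment of 1.86, and the nearest peak was 1096 kb away in GFP control and 1056 kb away in Zbt-KD CSDS. In GFP SSDS the widest was a 166 kb peak over Zfp808 with 2.13, and in ZBT-OE SSDS a 462 kb Zfp808 peak with 2.72. Of the 31-base words of the locus 60.4% were multi-copy. With 1 list per group, the difference between groups could not be set against the spread between samples.

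Members shared by all lists were most frequent in both knockdown lists. Peaks overlapping a peak in each of the other 5 lists numbered 31 of 71 members in GFP control (43.7%), 26 of 67 in GFP CSDS (38.8%), 13 of 18 in Zbt-KD control (72.2%), 13 of 19 in Zbt-KD CSDS (68.4%), 9 of 25 in GFP SSDS (36.0%) and 11 of 22 in ZBT-OE SSDS. Over all autosomal peaks the shares were 44.9%, 32%, 52.5%, 51.8%, 41.5% and 42.7%. Members found in no other list numbered 1, 0, 0, 3, 4 and 7; the share of all autosomal peaks found in no other list was 5.89%, 5.60%, 4.61%, 5.41%, 13.6% and 27.6%, and 7 of 22 members (31.8%) in ZBT-OE SSDS was near it. By gene name, 25 of the 48 genes were in 1 list and 7 in all 6.

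The annotated Zfp genes were then counted, whatever a peak was named for. Of 383 annotated autosomal Zfp genes, a peak of any name touched 39 in GFP control (10.2%), 42 in GFP CSDS (11.0%), 37 in Zbt-KD control (9.66%), 37 in Zbt-KD CSDS (9.66%), 56 in GFP SSDS (14.6%) and 69 in ZBT-OE SSDS (18%). For all 20807 autosomal coding genes the shares were 6.03%, 6.36%, 6.38%, 6.20%, 8.49% and 12.2%. The same 33 Zfp genes were touched in all 6 lists (8.62%, 6.20 to 11.9), against 5.04% of coding genes, and 306 (79.9%) in none, against 86.3%. Of those 33, 17 lay in the chromosome 4 array, and the excess over coding genes was lost without it: 16 of the other 365 Zfp genes (4.38%, 2.72 to 7.0) were touched in all 6 lists. By list, 6.03%, 6.85%, 5.48%, 5.48%, 10.7% and 14.2% of those 365 were touched, a calculation added after the data were seen. Outside it were the 5 chromosome 9 genes, Zfp40, and, chosen after their values were seen, Zfp616, Zfp606 and Zfp958, whose covering peaks mostly bore other names.

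The Zfp genes form 17 arrays of 5 or more neighbours, 13.8 Mb in all. Peaks covered 27.2%, 26.3%, 27.1%, 25.1%, 26.4% and 29.6% of them, and 5.85%, 6.86%, 6.99%, 7.14%, 8.84% and 9.16% of the autosomes. Without the chromosome 4 array the share fell to 13.3%, 12.5%, 13.2%, 11.0%, 12.5% and 15.8%, still above that of the autosomes in every list. The cover was uneven: 3 arrays were over 50% covered in a list (those of chromosomes 4 and 9 and the Zfp551 array on chromosome 7), and 7 arrays with 60 Zfp genes had no peak in any. Zfp genes in arrays were touched in 14.1% to 22.8% of cases over the lists and Zfp genes outside them in 4.52% to 13.6%. Without the chromosome 4 array, 7.83%, 6.63%, 6.63%, 5.42%, 7.23% and 15.1% of the 166 Zfp genes in arrays were touched. Outside arrays the shares were 4.52%, 7.04%, 4.52%, 5.53%, 13.6% and 13.6%. The arrays then stayed above in GFP control, Zbt-KD control and ZBT-OE SSDS and were below in the other lists. Across the 17 arrays, median cover and the share of multi-copy words had a Spearman's rho of 0.66, a description over neighbouring and related arrays of 1 genome. The untouched arrays held 6.71% to 28.6% multi-copy words, and the chromosome 9 array, with 89.7% to 90.3% cover, 15%.

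**Figure D5:**
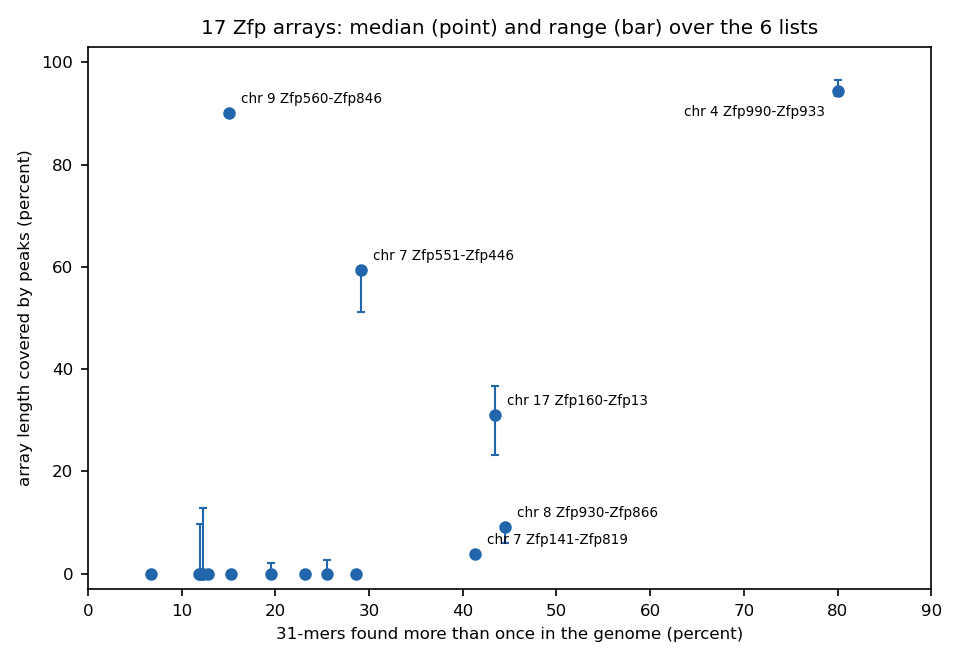
Median percent of each of the 17 Zfp arrays covered by peaks over the 6 lists against the percent of multi-copy 31-base words in it, with 1 point per array and a bar for the range over the lists. The chromosome 4 array sits at 80.0% multi-copy and 94.4% cover, the chromosome 9 array reaches 89.7% to 90.3% cover at 15%, and the 7 arrays without a peak lie along the bottom.

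The cell label could not be checked from these peaks, which touched only 6.03% to 12.2% of all coding genes. Of 10 astrocyte marker genes, a peak touched 0 in 5 lists and only Atp1b2 in ZBT-OE SSDS. No microglial or oligodendrocyte marker of 10 each was touched in any list, and of 10 neuronal markers Map2, which encodes a dendritic microtubule protein, was touched in 4 lists. The silencing machinery that KRAB zinc finger proteins work through was touched at low counts. Of 24 listed genes, which include Trim28 and Setdb1, 0 were touched in the first 3 lists, 1 in Zbt-KD CSDS (Smarcad1), 3 in GFP SSDS (Hdac1, Smarcad1 and Suv39h1) and 5 in ZBT-OE SSDS, where Ehmt1 and Daxx joined those 3; the shares of all coding genes touched in the last 2 lists were 8.49% and 12.2%. Hdac1 is a histone deacetylase, and Suv39h1 and Ehmt1 are histone methyltransferases.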

How the data were processed

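ATAC-seq was analysed from 1 annotated peak list for each of 6 groups (32 samples). According to the study's methods and the labels, HISAT2 placed the reads on mm10, the authors discarded multi-mapping and duplicate reads (SAMtools), and MACS called peaks without a shifting model. The stated settings do not account for a narrowest peak that differs by list (687 to 20269 bp) or for peaks wider than 100 kb, so what a peak's width measures is not fully known. Whether and how samples were merged within a group before calling was not given in the sources used here. The deposited values used were the fold enrichment of each peak (a ratio over local background) and its q-value, at most 2.34e-04 in any list, with the nearest gene and its distance; the files hold no counts, so depth is unknown. Peak starts were read as counted from 1, since this gave the listed TSS distance exactly for 50 of 222 members, and counting from 0 for 26.

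Peaks of any name were intersected with the annotation of GRCm38, and 31-base words and promoters were read from its sequence. Each list was described on its own scale, because widths and numbers of peaks differed by list. No test was run, since each group had 1 list. Genes were named by a rule: those in all 6 lists (at most 15), the 3 strongest and the widest member of each list, up to 3 opened and 3 closed members of a contrast, loci with 3 or more names and the chromosome 10 locus, up to 10 genes whose TSS lay in a peak (ties by name), and listed markers. Zfp296, Zfp984, Zfp933, the genes of the single-list loci and those named for their place in an array were added after their values were seen. The members and lists were chosen with earlier results of these data known. Python 3.11.15 with Biopython 1.88, matplotlib 3.10.9, numba 0.67.0, numpy 2.4.6, pandas 2.3.3 and scipy 1.17.1 was used, and the counting code was tested on simulated data.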

Additional observations from a re-analysis of the deposited data

How the results depend on the processing

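Of 116 alternative values over 30 results, 87 stayed within counting error (shares and percentiles) or 1.5 times (counts), and 29 moved. Limiting members to those within 10 kb of the TSS left 14, 12, 4, 4, 7 and 10 peaks (GFP control, GFP CSDS, Zbt-KD control, Zbt-KD CSDS, GFP SSDS, ZBT-OE SSDS) and raised the median percentile to 78.8, 65.2, 87.6 and 88.8 in the first 4 lists. With this limit the share opened was 16.7% in GFP CSDS against GFP control, 0% in Zbt-KD control against GFP control, 0% in Zbt-KD CSDS against GFP CSDS, 0% in Zbt-KD CSDS against Zbt-KD control and 60.0% in ZBT-OE SSDS against GFP SSDS, and the share closed in Zbt-KD CSDS against GFP CSDS was 58.3%. With the upper 50% of peaks by fold enrichment, 17.1% were opened in GFP CSDS against GFP control, 38.5% closed in Zbt-KD control against GFP control, and 7.69% opened and 25.7% closed in Zbt-KD CSDS against GFP CSDS. On 1 scale for all lists, 21.1% were opened and 6.25% closed in GFP CSDS against GFP control (all peaks 25.6% and 11.6%), and 21.1% closed in Zbt-KD CSDS against GFP CSDS (all peaks 16.1%). These shares rest on fewer peaks by construction: the 60.0% was 6 of 10 members and the 58.3% was 7 of 12. For the limits by TSS distance and by fold enrichment, no share over all peaks was computed. Those shares therefore have no background beside them and are not read as results about the Zfp peaks. Without the chromosome 4 array, an alternative chosen after seeing the data, the share of annotated Zfp genes touched was 6.03%, 6.85%, 5.48%, 5.48%, 10.7% and 14.2% in the order above. No paired analysis was possible because each group had 1 list and no value per sample, and for the same reason leaving out a replicate could not be run. Depth is unknown, so an absent peak does not show closed chromatin, and peaks of 1 list that share a locus are not independent.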

Other observations

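The repeats at the centres of the members were counted beside those of all autosomal peaks. Of the 222 members, 45 were centred in an LTR retrotransposon (20.3%, 95% Wilson interval 15.5 to 26.0), against 15.7% of all autosomal peaks, which lies inside that interval, and 49 in a LINE (22.1%, 17.1 to 28.0), against 30.5%. SINE centres were as frequent in members (4.50%) as in all peaks (4.68%). The LTR share was uneven over the lists, from 18 of 67 in GFP CSDS (26.9%) and 6 of 18 in Zbt-KD control (33.3%) to 0 of 19 in Zbt-KD CSDS (interval up to 16.8%), where 10 of 19 members (52.6%) were centred in a LINE against 33.3% of all peaks. The LINE share was also above that of all peaks in GFP SSDS (36% against 26.5%), so the lower share over the 222 members did not hold in every list. Peaks of different lists often cover the same locus, so the 222 centres are not independent, and a centre moves when a peak is divided.

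Within the members of at least 10 kb, the fold enrichment was ranked against the share of multi-copy 31-base words and against width. Spearman's rho with multi-copy words was 0.41, 0.18, 0.09, 0.09, -0.07 and 0.08 over 15, 20, 15, 18, 22 and 22 peaks of GFP control, GFP CSDS, Zbt-KD control, Zbt-KD CSDS, GFP SSDS and ZBT-OE SSDS, and with width it was 0.74, 0.75, 0.80, 0.75, 0.81 and 0.48. These peaks share loci and 1 list each, and the values are descriptions. The rho with multi-copy words was not computed over all autosomal peaks, and the part of sequence repetition in the fold enrichment was not tested.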
